A study of Homo sapiens with 6 samples.

Results

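Heat shock proteins and J-domain proteins are the chaperones that fold, refold and hold other proteins, and their genes were examined here in the HuCCT1 cell line, a human intrahepatic cholangiocarcinoma line, with and without an added THY1 gene. The members were all rows of the expression table whose symbol begins with HSP90, or with HSPA, HSPB, HSPD, HSPE, HSPH, DNAJA, DNAJB or DNAJC followed directly by a digit, together with HSF1, HSF2 and CRYAB. This rule used names and no measured value, and it gave 84 of the 20811 genes in the table. HuCCT1/CD90+ cells had been transduced with a THY1-CMV-GFP lentivirus, which adds THY1, the gene of CD90, and whose name gives the CMV promoter and GFP. HuCCT1/CD90− cells had received the Lenti-CMV-GFP-2A-Puro-Blank lentivirus, so that both lines carried a lentivirus with GFP, and the puromycin cassette is named for the blank virus only. There were 3 libraries of each line, and nothing in the labels says that they came from separate cultures, so p-values measure only the spread between these libraries, which may be technical.

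Levels are given in RPM, a library's reads on genes scaled to a common total, from a panel that reads each gene over 1 short amplicon. Values are listed in the order of replicates 1, 2 and 3, and means are given with the SD (n = 3), HuCCT1/CD90− before HuCCT1/CD90+. The libraries held between 8587634 and 10551516 reads on genes, and 3 reads, taken as the floor, were worth 0.284 to 0.349 RPM. THY1, the gene added, was read at 0, 0.107 and 0 RPM across HuCCT1/CD90− and at 46.6, 51.8 and 73.8 RPM across HuCCT1/CD90+. Of the 8 epithelial markers all were read in both lines, among them KRT7 at 3433 ± 330.3 against 3656 ± 321 RPM, and 6 were higher and 0 lower in HuCCT1/CD90+ (4 higher with the replicate number as a block). CDH1 differed most among them, at 14.4 ± 1.69 against 227 ± 23.1 RPM. The summed level of 6 hepatocyte markers was 3.69 to 5.89 RPM for HuCCT1/CD90− and 0 to 0.814 RPM for HuCCT1/CD90+, with 0 higher and 2 lower (1 with the block), and TTR was listed at 0 in every library. The 7 fibroblast markers summed to 41.8 to 65.3 RPM for HuCCT1/CD90− and 20.4 to 24.7 RPM for HuCCT1/CD90+, with 0 higher and 5 lower (2 with the block). COL1A1, at 13.5 ± 2.21 against 14.2 ± 0.186 RPM, made up most of the HuCCT1/CD90+ sum. Neither COL1A1 nor PDGFRA was called. The 4 endothelial markers summed to 14.5 to 23.2 and 0.643 to 1.63 RPM, with 1 lower (CDH5) and KDR at or near 0. The leukocyte markers summed to 79.9 to 99.98 and 5.25 to 6.64 RPM, most of it CD14 in every library, with 2 lower (1 with the block) and PTPRC at or near 0. These sums moved with the lines, and their part in the results below was not tested. In bulk RNA of this kind a smaller share of cells that express a gene cannot be told apart from less RNA per cell.

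HSP70 proteins bind short hydrophobic stretches of unfolded proteins in a cycle driven by ATP. J-domain proteins (the DNAJA, DNAJB and DNAJC families) deliver clients to HSP70 and trigger its ATPase, and HSP110 proteins exchange the nucleotide. HSP90 acts later, on clients such as kinases and steroid receptors, the HSPD1/HSPE1 chaperonin folds proteins in the mitochondrial matrix, and small HSPs hold unfolded proteins without ATP. Each compartment has its own set. HSPA5 (BiP) and HSP90B1 (GRP94) work in the endoplasmic reticulum (ER), HSPA9 and HSPD1 in mitochondria, and HSPA8, HSP90AA1 and HSP90AB1 in the cytosol. The cytosolic genes are classic targets of the transcription factor HSF1, which binds heat shock elements, whereas the ER genes respond to the unfolded protein response through ER stress response elements bound by ATF6 and XBP1.

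The promoters of HSPA5 and HSP90B1 and of the cytosolic HSPA8 and HSPA1A show the difference between both kinds of element, and they are printed because the members are described by compartment below. Each is the 250 bases before the gene start in RefSeq (GRCh38.p14), written along the gene's strand. In the HSPA5 and HSP90B1 promoters capitals mark the ER stress response element, searched as CCAAT and CCACG with 9 bases between them, on both strands. In the HSPA8 and HSPA1A promoters they mark the heat shock element core, searched as GAANNTTC or TTCNNGAA, each its own reverse complement, and overlapping matches run together.
HSPA5, chr9:125241344-125241593, minus strand: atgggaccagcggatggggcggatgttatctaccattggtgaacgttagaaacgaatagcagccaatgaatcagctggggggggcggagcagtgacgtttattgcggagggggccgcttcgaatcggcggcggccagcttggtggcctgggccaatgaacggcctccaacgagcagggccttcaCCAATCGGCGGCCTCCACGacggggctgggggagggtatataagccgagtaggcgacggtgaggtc
HSP90B1, chr12:103930160-103930409, plus strand: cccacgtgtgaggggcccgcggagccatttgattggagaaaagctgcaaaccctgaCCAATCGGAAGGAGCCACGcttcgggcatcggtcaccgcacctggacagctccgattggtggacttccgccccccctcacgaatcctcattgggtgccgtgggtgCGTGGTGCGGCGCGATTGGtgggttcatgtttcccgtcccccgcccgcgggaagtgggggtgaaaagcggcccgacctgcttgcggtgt
HSPA8, chr11:123062137-123062386, minus strand: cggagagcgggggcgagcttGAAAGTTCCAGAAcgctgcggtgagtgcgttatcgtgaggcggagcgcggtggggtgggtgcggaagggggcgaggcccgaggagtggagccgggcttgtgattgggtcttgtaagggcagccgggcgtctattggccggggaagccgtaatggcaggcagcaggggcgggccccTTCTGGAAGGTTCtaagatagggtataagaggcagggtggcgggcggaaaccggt
HSPA1A, chr6:31815293-31815542, plus strand: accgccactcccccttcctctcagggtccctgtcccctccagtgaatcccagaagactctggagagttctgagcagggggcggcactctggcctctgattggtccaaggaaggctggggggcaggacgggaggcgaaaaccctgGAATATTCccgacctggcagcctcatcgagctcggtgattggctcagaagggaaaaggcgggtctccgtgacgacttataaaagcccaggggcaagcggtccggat
The ER element began 66 bases before the HSPA5 start, and 194 and 89 bases before the HSP90B1 start. It was found in 26 of 35116 promoters of the RefSeq table (0.074%), in 2 of the 86 promoters of members (HSPA5 and HSP90B1) and in 8 of the 31 promoters (25.8%) of the ER unfolded protein response list described below. The heat shock core was found in 4067 promoters (11.6%), in 19 of the 86 member promoters (22.1%), in 14 of 35 (40%) of the heat shock target list and in 1 of 31 (3.23%) of the ER list. These are matches of letters in a fixed window and say nothing of binding in these cells. The windows of DNAJB9, DNAJB11 and DNAJC3 held no match to the ER element as spelled here.

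Summed over a class, the J-domain proteins of the DNAJB family had the highest ratio of means among the classes given here. Their sum went from 591 ± 38.3 to 1001 ± 55.4 RPM, with all 3 HuCCT1/CD90+ libraries above all 3 HuCCT1/CD90− libraries and a ratio of 1.69. The HSP70 class went from 3122 ± 344 to 3949 ± 311 RPM (ratio 1.26) and the HSP110 class from 362 ± 2.72 to 453 ± 77.5 RPM (ratio 1.25), both without overlap, although the lowest HuCCT1/CD90+ library of HSP110 lay at 366 RPM beside a highest HuCCT1/CD90− library of 365 RPM. The DNAJC family was the only class below without overlap among those summed, from 1462 ± 73 to 1299.9 ± 59.1 RPM (ratio 0.889). The HSP90 class (3984 ± 466 to 4439.8 ± 322 RPM), the mitochondrial chaperonin (982 ± 84.9 to 803 ± 191 RPM), the DNAJA family (570.3 ± 122 to 502 ± 114 RPM) and the small HSPs (73.1 ± 11.3 to 79.7 ± 3.67 RPM) overlapped between the lines. All 84 members together took 1.12% of the reads in HuCCT1/CD90− and 1.26% in HuCCT1/CD90+, with overlap. Between libraries of the same number, the HuCCT1/CD90+ sum was higher in all 3 comparisons for the HSP90 class and for all members together, and lower in all 3 for the DNAJA family and the chaperonin. A sum follows its most abundant amplicons, so these sums are descriptions with no test, and the single genes follow.

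**Figure D1:**
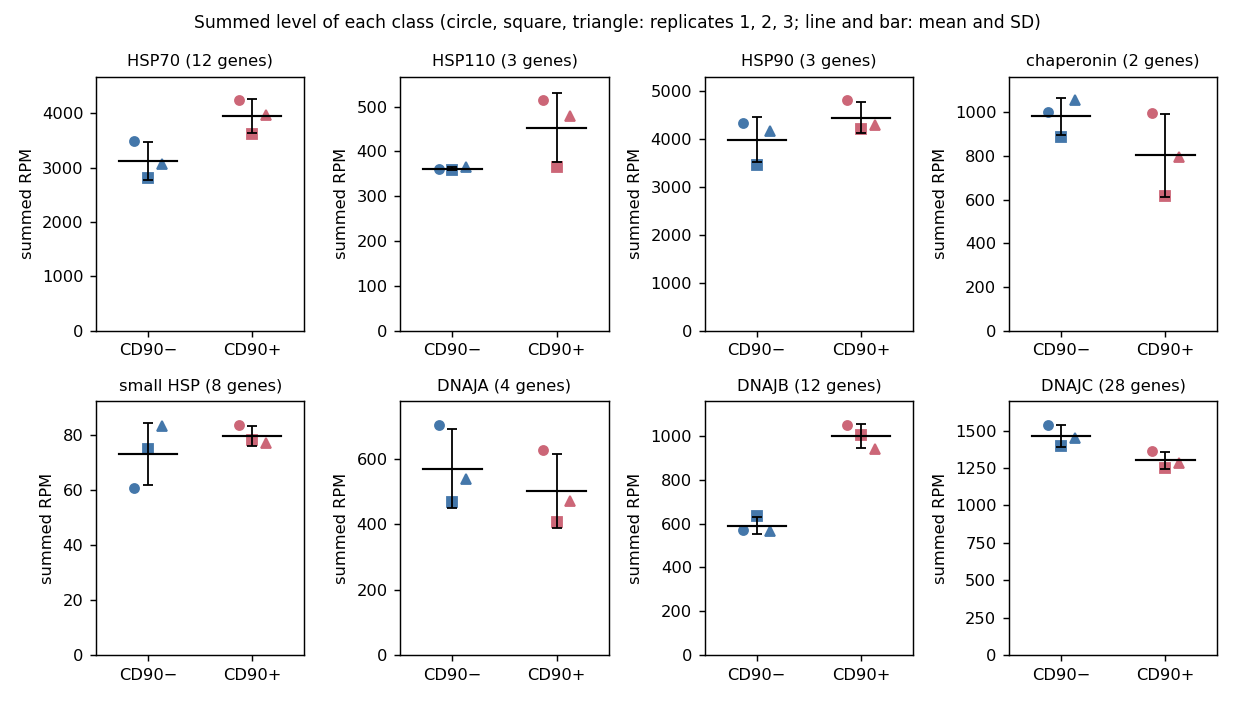
Summed RPM of each chaperone class (y axis, linear from 0) in the 3 HuCCT1/CD90− (blue) and 3 HuCCT1/CD90+ (red) libraries, with the mean as a line and the SD as a bar. The DNAJB sums lie near 591 RPM for HuCCT1/CD90− and near 1001 RPM for HuCCT1/CD90+, and the DNAJC sums lie lower in HuCCT1/CD90+.

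Of the 84 members, 60 had a mean of at least 1 RPM over the 6 libraries and 43 of at least 10 RPM, 19 stayed at or under the floor in every library, and 12 of these had no read at all. With limma on log2(RPM + 1) over all 20811 genes, and a Benjamini-Hochberg adjusted p of at most 0.05 as the call, 8 members were higher in HuCCT1/CD90+ against a background of 9.41% of all genes, and 10 were lower against 9.52%. The remaining 66 were not called, and a call without another name below is one of this fit over all genes. With limma on genes above a minimum mean of 1 or 10 RPM the members that were higher numbered 15 and 13, and with edgeR or DESeq2 on the recovered reads 16, and the members gained are given with their values below. Together 21.4% of the members were called, beside 18.9% of all genes, and above a mean level of 10 RPM 32.6% of 43 members beside 28.4% of 8794 genes, shares close to the background. The median log2 fold change was 0 over the members and over all genes. At the thresholds used in the study (fold change of 1.5 and unadjusted p of at most 0.05) 11 members were higher, with a background of 10.1%, and 8 lower, with a background of 9.98%. In 19 members all HuCCT1/CD90+ libraries lay above all HuCCT1/CD90− libraries (17.3% of all genes) and in 20 they lay below (17.7% of all genes). With the replicate number as a block 9 members were higher and 6 lower. Leaving out any 1 of the 6 libraries left 6 to 10 higher and 2 to 6 lower, so that each library moved the count of those lower by over 1.5 times, and the members concerned are named below. By family, DNAJB had 3 higher and 0 lower of 12, DNAJC 4 higher and 8 lower of 28, HSP70 1 higher and 0 lower of 12, the small HSPs 0 higher and 1 lower of 8, the heat shock factors 1 lower of 2, and HSP90, HSP110, the chaperonin and DNAJA had 0 called of 3, 3, 2 and 4. None of these family counts was tested against another.

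**Figure D2:**
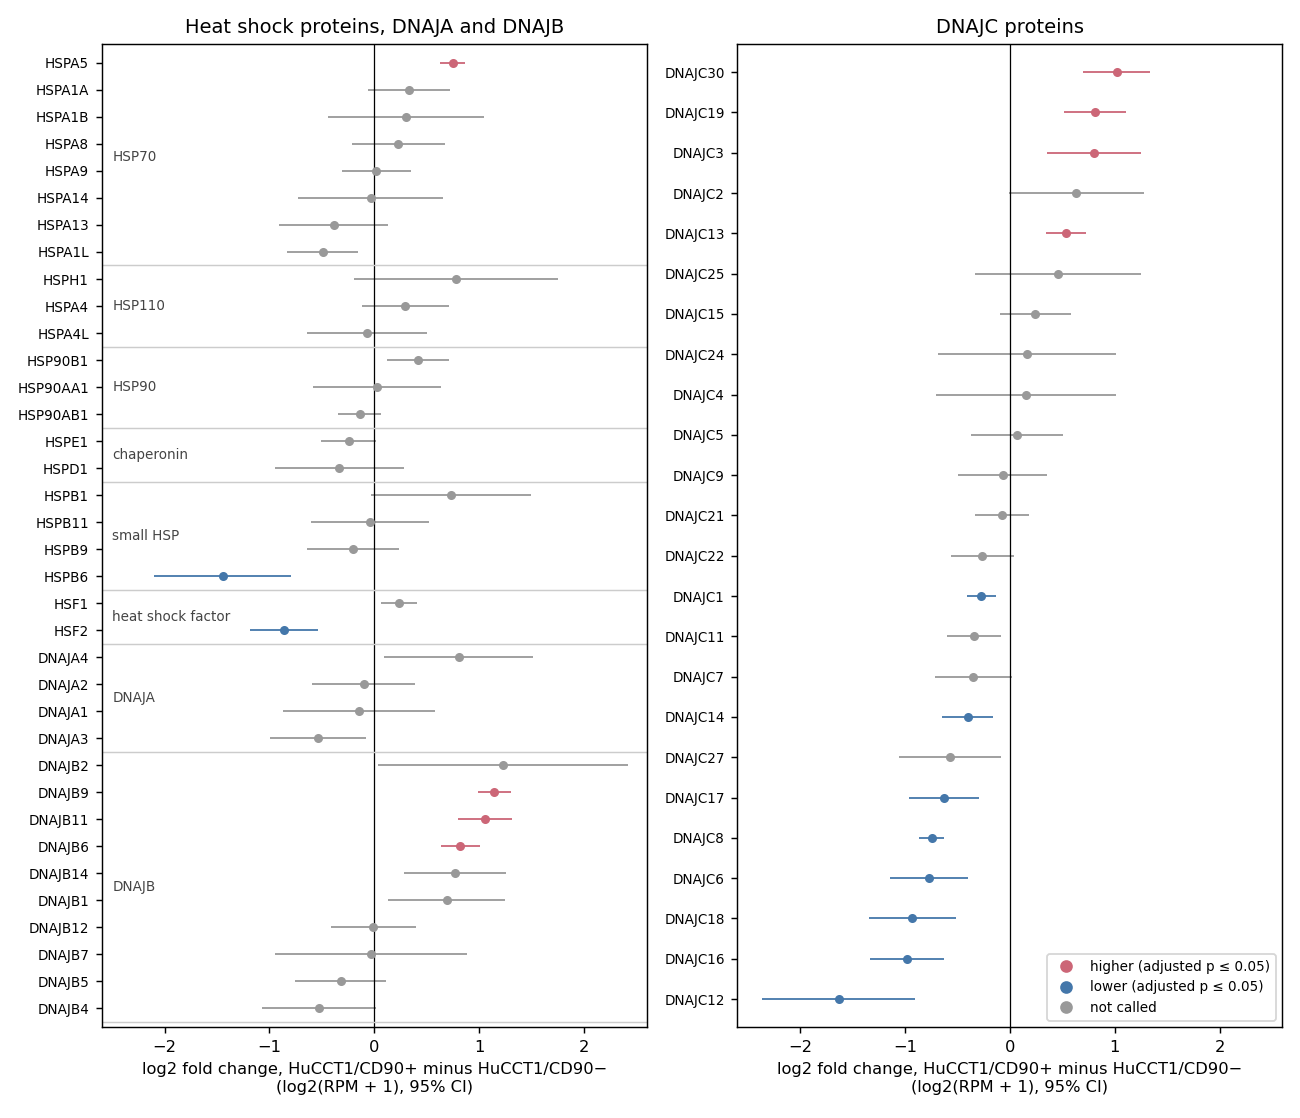
Log2 fold change (x axis, HuCCT1/CD90+ minus HuCCT1/CD90−, on log2(RPM + 1)) with its 95% confidence interval from limma for the 60 members with a mean of at least 1 RPM, grouped by class. Red marks the 8 members that were higher, blue the 10 that were lower and grey those not called, and the 3 red points in the DNAJB block are DNAJB9, DNAJB11 and DNAJB6.

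A group of 4 genes of the ER lumen rose in HuCCT1/CD90+. HSPA5 (BiP), the HSP70 of the ER, was read at 745, 709.5 and 750.0 RPM across HuCCT1/CD90− and 1238, 1173 and 1295 RPM across HuCCT1/CD90+. The lines did not overlap, and the gap between them was several times the spread within either. Its level rose (log2 fold change 0.75 ± 0.046 SE, 95% CI 0.62 to 0.87, adjusted p = 0.0018). DNAJB9 (ERdj4), a J-domain partner of HSPA5 that also represses the stress sensor IRE1, was read at 13.6, 14 and 12.9 RPM across HuCCT1/CD90− and 29.3, 30.9 and 33.2 RPM across HuCCT1/CD90+. It showed the lowest adjusted p among the members that rose (log2 fold change 1.15 ± 0.057 (SE), adjusted p = 0.00112). DNAJB11 (ERdj3), the soluble J-domain partner that hands unfolded secretory proteins to HSPA5, was read at 159, 176 and 167 RPM across HuCCT1/CD90− and 395, 334 and 319 RPM across HuCCT1/CD90+. All HuCCT1/CD90+ values lay above all HuCCT1/CD90− values, and its level rose as well (log2 fold change 1.05 ± 0.097 (SE), adjusted p = 0.00481). DNAJC3 (p58IPK), a further J-domain partner of HSPA5 in the ER, was read at 50.6, 47.7 and 63.2 RPM across HuCCT1/CD90− and 102, 78.6 and 104 RPM across HuCCT1/CD90+. It rose with a wider error (log2 fold change 0.80 ± 0.17 (SE), adjusted p = 0.0391), its HuCCT1/CD90+ replicate 2 being the lowest of that line. Its call was kept in 1 of the 6 fits that left out a library, without HuCCT1/CD90+ replicate 2 (adjusted p = 0.045), and was lost without HuCCT1/CD90− replicate 1 (0.116), 2 (0.111) or 3 (0.0538) and without HuCCT1/CD90+ replicate 1 (0.12) or 3 (0.125). HSPA5, DNAJB9 and DNAJB11 were called in all 6 of these fits.

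The other ER members did not pass the test or went the other way. DNAJC16 and DNAJC18 of the ER membrane fell (log2 fold change -0.98 and -0.93, adjusted p = 0.0127 and 0.0225) and are described below. HSP90B1 (GRP94), the HSP90 of the ER, was read at 1887, 1479 and 1772 RPM across HuCCT1/CD90− and 2416, 2139 and 2275 RPM across HuCCT1/CD90+. The lines did not overlap, but the change missed the threshold over all genes (log2 fold change 0.42 ± 0.11 (SE), adjusted p = 0.0724). It was called higher by limma with a minimum mean of 10 RPM (adjusted p = 0.0393) but not of 1 RPM (0.0521), and by edgeR (0.019) and DESeq2 (0.0124). DNAJC1 (ERdj1), a J-domain protein of the ER membrane, was the one ER list member that fell, by a small amount from 37.2 ± 0.96 to 30.7 ± 1.97 RPM (log2 fold change -0.27 ± 0.053 (SE), adjusted p = 0.0335). That call was lost with the replicate block (adjusted p = 0.0732), with minimum means of 1 and 10 RPM (0.154 and 0.13), with edgeR (0.166) and with DESeq2 (0.207), and among the fits that left out a library it was kept only without HuCCT1/CD90+ replicate 1 (0.0299) and lost without HuCCT1/CD90− replicate 1, 2 or 3 (0.0976, 0.104 and 0.0861) or HuCCT1/CD90+ replicate 2 or 3 (0.103 and 0.0627). DNAJC10 (ERdj5), a disulfide reductase of the ER, was listed at 0 in all 6 libraries. HSPA13, an atypical HSP70 of microsomes, overlapped between the lines (117 ± 22.2 against 88.8 ± 13.9 RPM, adjusted p = 0.282).

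The cytosolic and mitochondrial counterparts of HSPA5 and HSP90B1 were not called. HSPA8, the constitutive HSP70 of the cytosol, was read at 1616, 1178 and 1295 RPM across HuCCT1/CD90− and 1834, 1403 and 1545 RPM across HuCCT1/CD90+. The lines overlapped and the change was not called (log2 fold change 0.23 ± 0.17 SE, adjusted p = 0.482), but each HuCCT1/CD90+ library lay above the HuCCT1/CD90− library of the same number, and with the replicate number as a block it was called higher (adjusted p = 0.0406). HSPA9, the mitochondrial HSP70, had log2 fold change 0.020 with a 95% CI of -0.31 to 0.35, which leaves a change of the size of HSPA5 outside it. HSP90AA1, the inducible cytosolic HSP90, was at 996 ± 228 against 1002 ± 148 RPM (95% CI -0.58 to 0.64), and HSP90AB1, the constitutive one, at 1275 ± 29.3 against 1161 ± 108 RPM (log2 fold change -0.14 ± 0.078 (SE), adjusted p = 0.329), without overlap but not called. Within each library the ratio of HSPA5 to HSPA8 was 0.461, 0.603 and 0.579 in HuCCT1/CD90− and 0.675, 0.836 and 0.838 in HuCCT1/CD90+, and that of HSPA5 to HSPA9 was 1.77, 2.06 and 1.7 in HuCCT1/CD90− and 2.78, 3 and 3.38 in HuCCT1/CD90+. The ratio of HSP90B1 to HSP90AA1 was 1.64, 2.02 and 1.61 in HuCCT1/CD90− and 2.08, 2.48 and 2.31 in HuCCT1/CD90+, and to HSP90AB1 1.45, 1.19 and 1.38 in HuCCT1/CD90− and 1.96, 1.77 and 2.19 in HuCCT1/CD90+. All 4 ratios were higher in every HuCCT1/CD90+ library than in any HuCCT1/CD90− library. The ratios themselves depend on the amplicons, so only their difference between lines is read, and since an exact permutation test of 3 against 3 cannot go below p = 0.1 they are given without a test.

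**Figure D3:**
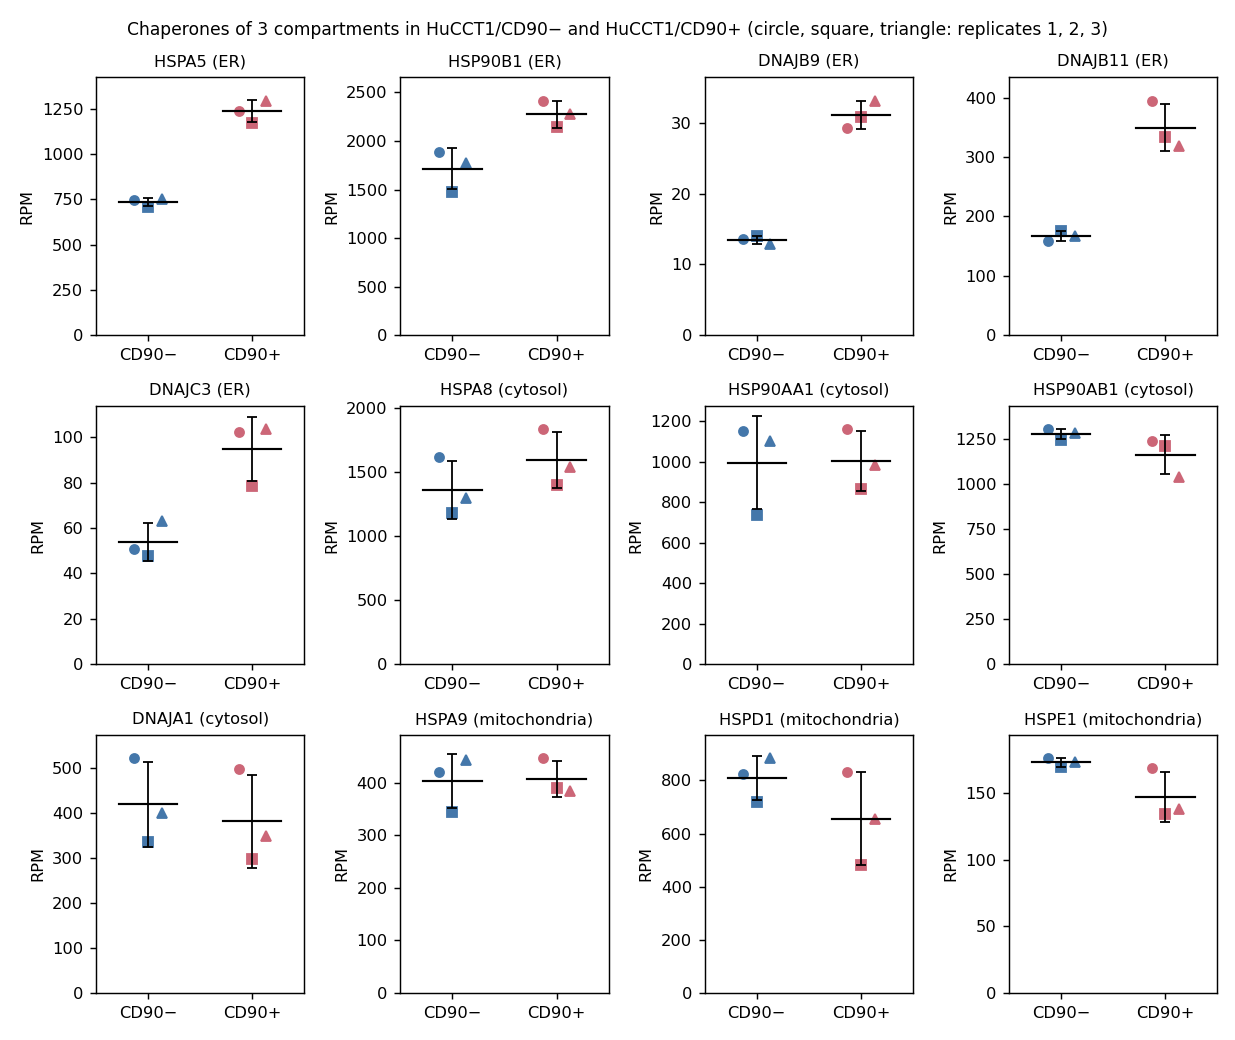
RPM (y axis, linear from 0) of 5 ER, 4 cytosolic and 3 mitochondrial chaperones in each HuCCT1/CD90− (blue) and HuCCT1/CD90+ (red) library, with the mean as a line and the SD as a bar. The lines are apart in the 5 ER panels, whereas HSPA8, HSP90AA1, DNAJA1, HSPA9 and HSPD1 overlap, and HSP90AB1 and HSPE1 lie slightly lower in HuCCT1/CD90+.

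The ER members other than DNAJC16, DNAJC18 and HSPA13 sat in a list of 26 genes of the ER unfolded protein response. This list was drawn up when earlier results of these data were known. In it 13 were higher and 1 lower (DNAJC1), with a median log2 fold change of 0.62 beside 0. That is 53.8% called, beside 18.9% of all genes and 28.4% of the 8794 genes that averaged 10 RPM or more. All genes of the list but DDIT3 and DNAJC10 reached that level. SERPINH1, an ER gene that fell as DNAJC16 and DNAJC18 did, was not on the list either. The share called is thus a description of this choice of genes and was not tested. With edgeR and with DESeq2 17 genes of the list were higher and 0 lower. Minimum means of 1 and 10 RPM gave 15 and 16 higher and 0 lower. With the replicate block 10 were higher and 0 lower, and 7 to 8 were higher in the fits that left out a library. Leaving out any of the 6 libraries thus moved this count by over 1.5 times, to 7 without HuCCT1/CD90− replicate 3 or HuCCT1/CD90+ replicate 1 and to 8 without each of the others. Counting only the 19 genes that are no heat shock or J-domain gene, 9 were higher and 0 lower, with a median of 0.49. HYOU1 (GRP170), the nucleotide exchange factor of HSPA5, was read at 393, 444 and 353 RPM across HuCCT1/CD90− and 786, 799 and 881 RPM across HuCCT1/CD90+ and rose (log2 fold change 1.05 ± 0.10 (SE), adjusted p = 0.00559), but narrowly missed the threshold with the block (adjusted p = 0.0526). SDF2L1, which works with DNAJB11, was at 28.4 ± 4.94 against 82 ± 11.3 RPM (log2 fold change 1.5 ± 0.17 (SE), adjusted p = 0.00844), and CRELD2, a secreted ER stress protein, at 45.4 ± 2.95 against 115 ± 7.5 RPM (log2 fold change 1.32 ± 0.071 (SE), adjusted p = 0.00134). MANF, another secreted ER stress protein, and PDIA4, a disulfide isomerase, rose with log2 fold changes of 1.2 and 1.35 (adjusted p = 0.0441 and 0.0245). MANF was not called with trended and robust eBayes (adjusted p = 0.0512), nor PDIA4 with the block (adjusted p = 0.0749). The genes of the ER-associated degradation complex in the list, HERPUD1, SEL1L and SYVN1, had log2 fold changes of 1.03, 0.86 and 0.88 and were called higher, SYVN1 not with the block (0.0872). The same held for the stress sensor EIF2AK3 (PERK), at 0.49 and adjusted p = 0.043 without and 0.154 with the block. The other sensors and factors of this response were not called. XBP1 had log2 fold change 0.15 ± 0.24, ATF6 -0.093 ± 0.12 and ERN1 0.042 ± 0.47 (SE), and DDIT3 was below 1 RPM in both lines. Of the 9 genes that rose here, HYOU1, SDF2L1, CRELD2 and SEL1L were called in all 6 fits that left out a library, and PDIA4, MANF, HERPUD1, SYVN1 and EIF2AK3 each lost the call in at least 5 of them, with adjusted p up to 0.141 for MANF. An amplicon level of XBP1 does not show its splicing.

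**Figure D4:**
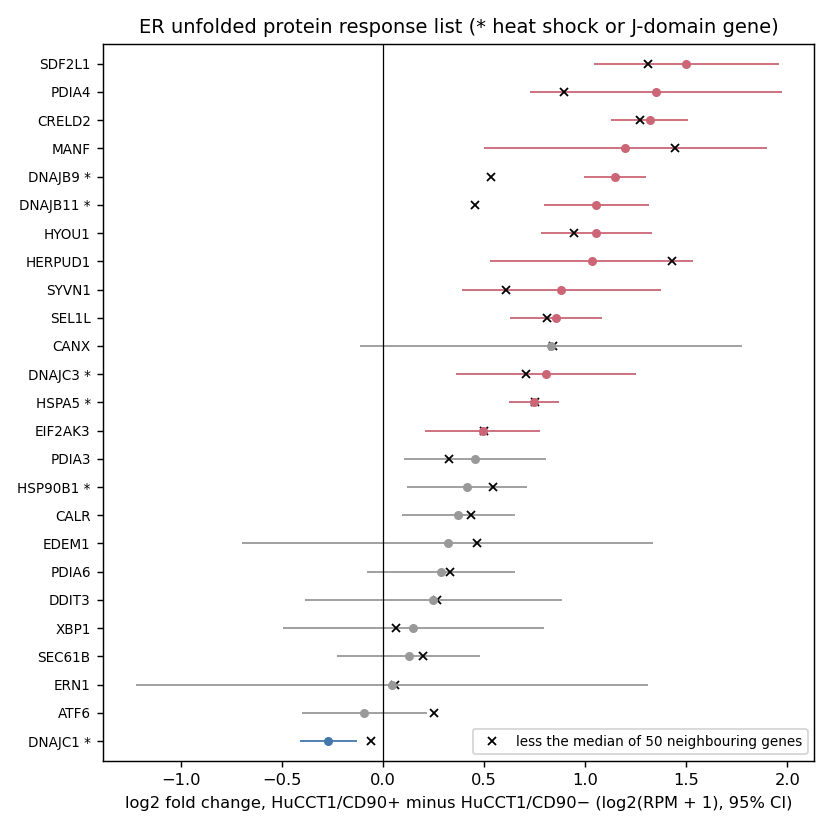
Log2 fold change (x axis, HuCCT1/CD90+ minus HuCCT1/CD90−) with its 95% confidence interval from limma for 25 of the 26 genes of the ER unfolded protein response list, DNAJC10 at 0 in all libraries being left out. Red marks the 13 genes that were higher and blue the 1 that was lower, asterisks mark heat shock or J-domain genes, and crosses show the value less the median of the 50 neighbouring genes, which falls well to the left of the point for DNAJB9 and DNAJB11 and on the point for HSPA5.

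In a list of 25 heat shock response targets, 23 of them in the table, 2 were higher and 2 lower. That is 17.4% called, beside 18.9% of all genes, with a median log2 fold change of 0.23 beside 0. The number that were higher depended on the fit. It was 7 with edgeR and with DESeq2, 5 and 6 with minimum means of 1 and 10 RPM, and 0 to 1 when any 1 library was left out. No member in it was called in the fit over all genes. HSPA1A, the stress-inducible HSP70, was read at 575, 434 and 411 RPM across HuCCT1/CD90− and 587, 561 and 621 RPM across HuCCT1/CD90+. The lowest HuCCT1/CD90+ value lay under the highest HuCCT1/CD90− value, and the change was not called (log2 fold change 0.33 ± 0.15 (SE), adjusted p = 0.231). Without HuCCT1/CD90− replicate 1 it was called higher (adjusted p = 0.0253). HSPA1B, a near-identical copy whose reads may be split with HSPA1A, was at 12.3 ± 2.85 against 15.6 ± 4.53 RPM (adjusted p = 0.572), and HSPA1L at 1.95 ± 0.313 against 1.1 ± 0.25 RPM (log2 fold change -0.49 ± 0.13 (SE), adjusted p = 0.0685; lower with a minimum mean of 1 RPM, 0.0296, and with median centring, 0.0413). HSPA6, the strictly inducible HSP70, stayed near the floor, at 0.262 ± 0.102 against 0.669 ± 0.311 RPM. DNAJB1 (HSP40), the main inducible J-domain partner of HSPA8, was read at 66, 53 and 40 RPM across HuCCT1/CD90− and 91.4, 86.2 and 76.2 RPM across HuCCT1/CD90+. Its lines did not overlap, yet it was not called over all genes (log2 fold change 0.69 ± 0.21 (SE), adjusted p = 0.0977). It was called higher by limma with minimum means of 1 and 10 RPM (adjusted p = 0.0135 and 0.00886), by edgeR (0.00557) and by DESeq2 (0.00245). HSPH1 (HSP105), the inducible HSP110, was read at 13.1, 31.9 and 23.8 RPM across HuCCT1/CD90− and 44.6, 37.5 and 32 RPM across HuCCT1/CD90+, and its HuCCT1/CD90− libraries differed among themselves by more than the smallest gap to HuCCT1/CD90+ (log2 fold change 0.78 ± 0.36 (SE), adjusted p = 0.251; higher with minimum means of 1 and 10 RPM, 0.0368 and 0.0266, with edgeR, 0.0155, and with DESeq2, 0.0115). HSPB1 (HSP27), a small HSP, went from 18.6 ± 6.33 to 30.6 ± 4.8 RPM (log2 fold change 0.73 ± 0.29 (SE), adjusted p = 0.177; higher with minimum means of 1 and 10 RPM, 0.0239 and 0.0165, with edgeR, 0.0113, and with DESeq2, 0.0078). DNAJA1, the abundant cytosolic DNAJA, was at 419.9 ± 94.3 against 382 ± 104 RPM (log2 fold change -0.15 ± 0.27 (SE), adjusted p = 0.883). The mitochondrial HSPD1 and HSPE1 were at 809 ± 82.7 against 656 ± 174 RPM and at 173 ± 3.14 against 147 ± 18.8 RPM, with adjusted p = 0.452 and 0.191, and HSPE1 was called lower without HuCCT1/CD90+ replicate 1 (0.00923). The genes of the list that were called are no members. STIP1, which links HSP70 and HSP90, and FKBP4, an HSP90 immunophilin, were higher, whereas SERPINH1, the collagen chaperone of the ER, and DEDD2 were lower (DEDD2 not with the block, adjusted p = 0.0517, nor without HuCCT1/CD90− replicate 1, 0.0547, or HuCCT1/CD90+ replicate 3, 0.0579). SERPINH1 went from 373 ± 21.6 to 209.5 ± 4.8 RPM (log2 fold change -0.83 ± 0.050 (SE), adjusted p = 0.00176).

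Of the HSP110 class, HSPA4 was at 320.2 ± 10.4 against 398 ± 72.7 RPM (log2 fold change 0.30 ± 0.15 (SE), adjusted p = 0.301; higher without HuCCT1/CD90+ replicate 2, adjusted p = 0.0143) and HSPA4L at 18.4 ± 3.82 against 17.5 ± 3.66 RPM (adjusted p = 1). Among the DNAJA proteins, DNAJA3 (TID1), the mitochondrial one, had no overlap between the lines but was not called over all genes (log2 fold change -0.54 ± 0.17 (SE), adjusted p = 0.113). It was called lower without HuCCT1/CD90− replicate 1 (adjusted p = 0.02), with minimum means of 1 and 10 RPM (0.0306 and 0.0218), by edgeR (0.0105) and by DESeq2 (0.00814). DNAJA4 was low, at 3.19 ± 1.03 against 6.33 ± 1.65 RPM, and not called over all genes (log2 fold change 0.81 ± 0.27 (SE), adjusted p = 0.122), but called higher with a minimum mean of 1 RPM (0.0119) and by edgeR (0.0114) and DESeq2 (0.0192), and DNAJA2 overlapped. In the DNAJB family DNAJB14, an ER membrane J-domain protein that faces the cytosol, just missed the threshold (log2 fold change 0.77 ± 0.18 (SE), adjusted p = 0.0537) and was called higher with minimum means of 1 and 10 RPM (0.00527 and 0.00315), with median centring (0.0159), with quantile normalization (0.0362) and by edgeR (0.0019) and DESeq2 (0.000458). Its relative DNAJB12 was at log2 fold change -0.0090 with a 95% CI of -0.41 to 0.39. DNAJB2, at 1.72 ± 0.937 against 5.55 ± 3 RPM, and DNAJB4, at 7.99 ± 1.27 against 5.27 ± 1.24 RPM, were not called over all genes (adjusted p = 0.15 and 0.171). With the replicate block DNAJB2 was called higher (adjusted p = 0.0299) and DNAJB4 lower (0.0414), as they were with a minimum mean of 1 RPM (0.00865 and 0.0432), and edgeR and DESeq2 also called DNAJB2 higher (0.00246 and 0.00166). The small HSP with the highest level, HSPB11 (IFT25, a subunit of ciliary transport particles), overlapped at 48.5 ± 10.3 against 47 ± 8.46 RPM.

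Beside the ER partners, 4 J-domain genes rose. DNAJB6, a cytosolic and nuclear J-domain protein that keeps aggregation-prone proteins soluble, was read at 202, 236 and 215 RPM across HuCCT1/CD90− and 392, 394 and 368 RPM across HuCCT1/CD90+. The spread within each line was small beside the gap, and its level rose (log2 fold change 0.82 ± 0.069 (SE), adjusted p = 0.0037). DNAJC30, a mitochondrial J-domain protein, went from 11.1 ± 1.46 to 23.5 ± 2.2 RPM (log2 fold change 1.02 ± 0.12 (SE), adjusted p = 0.00886), and DNAJC19, which belongs to the inner membrane import machinery of mitochondria, from 57.8 ± 3.38 to 103 ± 13.7 RPM (log2 fold change 0.81 ± 0.11 (SE), adjusted p = 0.0134). DNAJC13 (RME-8), a J-domain protein of endosomes, went from 72.4 ± 6.52 to 105 ± 2.35 RPM (log2 fold change 0.54 ± 0.071 (SE), adjusted p = 0.012). DNAJB6 and DNAJC30 were called in all 6 fits that left out a library. DNAJC19 lost its call without HuCCT1/CD90− replicate 3 (adjusted p = 0.0546), and DNAJC13 without HuCCT1/CD90+ replicate 1 (0.0522) or 2 (0.052) and with the replicate block (0.0716). All 4 lie on chromosome 7 or 3, as do DNAJB9 and DNAJB11.

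The 10 members that fell were 8 DNAJC genes, HSPB6 and HSF2. DNAJC8, a J-domain protein associated with the spliceosome, was read at 342, 311 and 340.5 RPM across HuCCT1/CD90− and 195, 196 and 200.1 RPM across HuCCT1/CD90+. It fell in every library by more than the spread (log2 fold change -0.75 ± 0.043 (SE), adjusted p = 0.00155) and was called in all 6 fits that left out a library and with the block. DNAJC17, another J-domain protein linked to splicing, fell from 8.83 ± 1.37 to 5.35 ± 0.518 RPM (log2 fold change -0.63 ± 0.13 (SE), adjusted p = 0.0354), but was called in none of the 6 fits that left out a library, where adjusted p ranged from 0.0518 without HuCCT1/CD90− replicate 2 to 0.106 without HuCCT1/CD90+ replicate 1, nor with the block (0.0806). DNAJC16 (ERdj8), a J-domain protein of the ER membrane, was read at 49.2, 50.4 and 54 RPM across HuCCT1/CD90− and 20.9, 27.8 and 28 RPM across HuCCT1/CD90+ (log2 fold change -0.98 ± 0.13 (SE), adjusted p = 0.0127). DNAJC18, also an ER membrane protein, went from 11.6 ± 0.98 to 5.69 ± 1.23 RPM (log2 fold change -0.93 ± 0.16 (SE), adjusted p = 0.0225; with the block 0.0647) and DNAJC14 from 48.2 ± 3.02 to 36.3 ± 3.72 RPM (log2 fold change -0.40 ± 0.091 (SE), adjusted p = 0.0478; with the block 0.133). DNAJC14 was also lost with a minimum mean of 1 RPM (0.0522), with quantile normalization (0.0612) and with trended and robust eBayes (0.0552). DNAJC6 (auxilin), which uncoats clathrin vesicles with HSPA8, was read at 70.8, 52 and 58.9 RPM across HuCCT1/CD90− and 38.7, 33.2 and 32.9 RPM across HuCCT1/CD90+ and fell (log2 fold change -0.77 ± 0.14 (SE), adjusted p = 0.0278).

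The largest falls on the log2 scale were in genes of low level. DNAJC12, a partner of the aromatic amino acid hydroxylases, was read at 1.8, 2.67 and 3.49 RPM across HuCCT1/CD90− and 0, 0 and 0.543 RPM across HuCCT1/CD90+ (log2 fold change -1.64 ± 0.27 (SE), adjusted p = 0.0224), so that 1 HuCCT1/CD90+ library held reads above the floor and the other two none. The size of this fall follows the offset, with a log2 fold change of -3.84 at 0.1 RPM, where it was not called (0.0507), -0.56 at 5 RPM and -3.75 with edgeR. HSPB6 (HSP20), a small HSP best known in muscle, was read at 5.4, 4.82 and 3.59 RPM across HuCCT1/CD90− and 0.75, 1.75 and 0.76 RPM across HuCCT1/CD90+ (log2 fold change -1.45 ± 0.25 (SE), adjusted p = 0.0235; with the block 0.0664). Leaving out a library decided several of these calls. DNAJC12 was called without HuCCT1/CD90− replicate 1 (0.0374) and HuCCT1/CD90+ replicate 3 (0.0345), and lost without HuCCT1/CD90− replicate 2 (0.077) or 3 (0.0675) or HuCCT1/CD90+ replicate 1 (0.077) or 2 (0.0773). HSPB6 and DNAJC14 were called only without HuCCT1/CD90+ replicate 2 (0.0211 and 0.0302), and DNAJC18 only without HuCCT1/CD90+ replicate 3 (0.019). In the fits without each of the other libraries HSPB6 ranged from 0.0516 to 0.0839, DNAJC14 from 0.103 to 0.144 and DNAJC18 from 0.0544 to 0.0815. DNAJC16 lost its call without HuCCT1/CD90− replicate 2 (0.05003) or 3 (0.0538), and DNAJC6 without HuCCT1/CD90− replicate 3 (0.0889) or HuCCT1/CD90+ replicate 1, 2 or 3 (0.0595, 0.0926 and 0.0992).

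Of the 2 heat shock factors, 1 was called. HSF1, the main activator of the heat shock response, was read at 67.7, 59.7 and 59.6 RPM across HuCCT1/CD90− and 72.5, 71.5 and 76.9 RPM across HuCCT1/CD90+. The lines did not overlap, but the difference was small and not called (log2 fold change 0.24 ± 0.064 (SE), adjusted p = 0.0745), except without HuCCT1/CD90− replicate 1 (adjusted p = 0.0286). HSF2, a relative that forms trimers with HSF1, was read at 23.4, 20.5 and 26.3 RPM across HuCCT1/CD90− and 13.1, 13.3 and 11 RPM across HuCCT1/CD90+ and fell (log2 fold change -0.86 ± 0.12 (SE), adjusted p = 0.0146). Its call was lost with the replicate block (0.0918), without HuCCT1/CD90− replicate 1 (0.0538) and without HuCCT1/CD90+ replicate 1 (0.0502). In a list of 9 heat shock factors and regulators HSF2 was the only gene called over all genes, with 0 higher, which is 11.1% called beside 18.9% of all genes. The number lower was 4 with edgeR and with DESeq2, 3 and 2 with minimum means of 1 and 10 RPM, and 0 with the block. The messenger RNA of HSF1 does not show its activity, which is set largely on the protein.

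Many of the members that changed lie among genes whose median change had the same sign. For each member the 50 nearest genes that averaged 10 RPM or more were taken, and the median of their log2 fold changes was 0.65 around DNAJB9, 0.62 around DNAJC30 and 0.52 around DNAJB6 on chromosome 7, and 0.60, 0.57 and 0.42 around DNAJB11, DNAJC19 and DNAJC13 on chromosome 3. It was -0.50 around HSF2 on chromosome 6 and -0.41 around DNAJC16 and -0.29 around DNAJC6 on chromosome 1. Over the 60 members with a mean of at least 1 RPM, which share the libraries, the log2 fold change and that of the neighbours had Pearson r = 0.6 and Spearman rho = 0.613, and 15 of the 18 called members (83.3%) had the sign of their neighbours, beside 65.7% of all called genes at that level. With the neighbour median subtracted, 4 members were higher, against a background of 7.8% of all genes, and 5 lower, against 8.21%. Of the 18 called members 8 kept their call (44.4%), beside 74.2% of all called genes at that level, a difference that was not tested. HSPA5 and DNAJC8 hardly differed from before, with neighbours at -0.0030 and -0.045 and log2 fold changes of 0.75 and -0.70 after subtraction (adjusted p = 0.00185 and 0.00191). DNAJB9 and DNAJB11 kept their calls at less than their full size, with 0.53 (adjusted p = 0.00777) and 0.45 (0.0472). DNAJC18, DNAJC12, HSPB6 and DNAJC17 also kept theirs, HSP90B1 was called higher (0.54, 0.042), and DNAJC3, whose neighbours lay at 0.10, was just short of the threshold (0.0611). DNAJB6 (0.056), DNAJC30 (0.0855), DNAJC19 (0.24), DNAJC13 (0.37), DNAJC16 (0.0533), HSF2 (0.117), DNAJC6 (0.0964), DNAJC14 (0.0865) and DNAJC1 (0.586) were not called after subtraction. On the ER list 11 genes were higher and 0 lower after subtraction, HSP90B1 among them. PDIA4 (0.0761) and SYVN1 (0.111) lost their calls, as DNAJC3 did. HSPB1, whose neighbours lay at 0.62, went from a log2 fold change of 0.73 to 0.14 (adjusted p = 0.923). DNAJB1 and HSPH1 were at 0.75 and 0.71 after subtraction (adjusted p = 0.0888 and 0.311). Neighbours were ordered by their positions in RefSeq (GRCh38.p14). The part of the regional shifts in each member's change was not tested further.

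**Figure D5:**
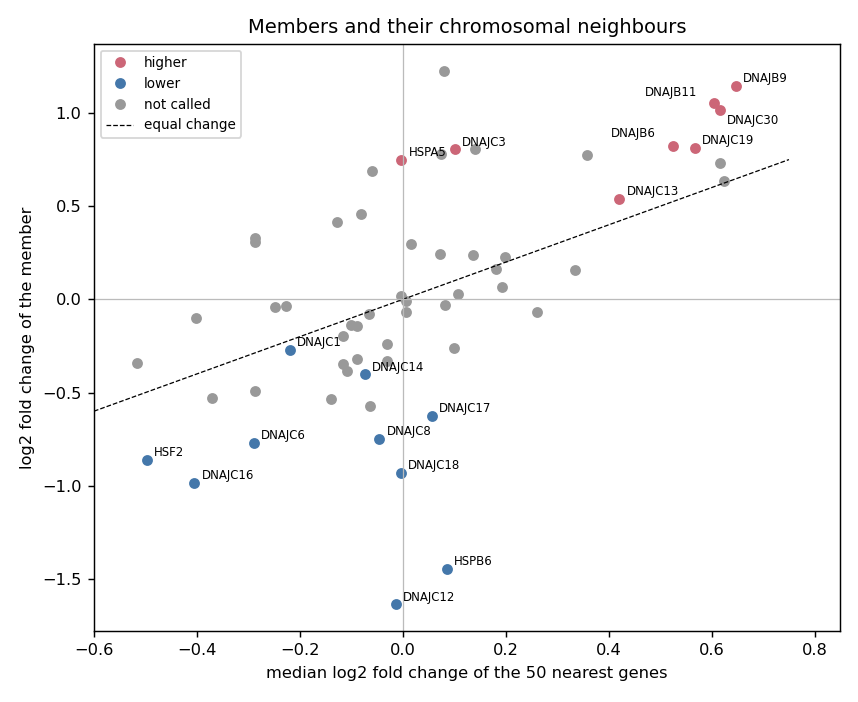
Log2 fold change of each of the 60 members with a mean of at least 1 RPM (y axis) against the median change of the 50 genes nearest to it (x axis), with the dashed line where both are equal. A group of 6 of the 8 members that were higher lies right of 0.4 on the x axis, and HSPA5 and DNAJC3 stand near 0 on that axis.

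The share of genes called in the other lists of the pathway lay between 7.14% and 25%, beside 18.9% of all genes, and no list is read as standing apart from it. Of 16 HSP70 co-chaperones and exchange factors, 13 of them no member, 1 was higher (HYOU1) and 3 were lower (25% called), and with the block 0 were higher and 2 lower. With edgeR, DESeq2 and both minimum means 3 were higher and 3 lower. ST13 (HIP), which stabilizes HSP70 bound to ADP, was read at 296, 274 and 315 RPM across HuCCT1/CD90− and 181, 164 and 184 RPM across HuCCT1/CD90+ and fell (log2 fold change -0.74 ± 0.074 (SE), adjusted p = 0.00603), and BAG6 fell by 0.63 on the log2 scale (adjusted p = 0.0256). BAG4 fell by a smaller amount (log2 fold change -0.27 ± 0.044 (SE), adjusted p = 0.0208) and was not called with the block (0.0646). Of 14 HSP90 co-chaperones (21.4% called) STIP1 (log2 fold change 0.51 ± 0.087 (SE), adjusted p = 0.024), FKBP4 (log2 fold change 0.39 ± 0.090 (SE), adjusted p = 0.0498) and PPP5C (log2 fold change 0.21 ± 0.036 (SE), adjusted p = 0.0235) were higher and 0 lower, and with the block FKBP4 alone was called. With edgeR and with DESeq2 4 of these co-chaperones were higher and 2 lower. Minimum means of 1 and 10 RPM gave 2 and 3 higher, and 2 lower with either. Of 14 genes of the cytosolic chaperonin TRiC and of prefoldin 0 were higher and 1 was lower (7.14% called), CCT3 (log2 fold change -0.49 ± 0.076 (SE), adjusted p = 0.0188), and with the block 2 were lower. With DESeq2 and both minimum means 1 was higher and 2 lower, and with edgeR 1 and 3 (2 and 4 without a filter). Of 17 genes of mitochondrial protein folding, 11 of them no member (23.5% of the 17 called), DNAJC19 and the proteases HTRA2 (log2 fold change 0.51 ± 0.097 (SE), adjusted p = 0.0308) and CLPP (log2 fold change 0.33 ± 0.049 (SE), adjusted p = 0.0161) were higher and YME1L1 (log2 fold change -0.43 ± 0.097 (SE), adjusted p = 0.0489) lower, and with the block DNAJC19 alone was called. With edgeR, DESeq2 and both minimum means 2 of these were higher and 2 lower. The calls of PPP5C, BAG4 and CLPP were not made by edgeR (adjusted p = 0.23, 0.129 and 0.096) or DESeq2 (0.22, 0.143 and 0.0976), and all 3 were also lost with both minimum means, that of PPP5C with median centring too. FKBP4, close to the threshold, was lost with a minimum mean of 1 RPM (0.0566), with median centring (0.0565), with trended and robust eBayes (0.0574) and with an offset of 5 RPM (0.0508), and YME1L1 with the latter pair (0.0564 and 0.0501). With the neighbour median subtracted STIP1 (adjusted p = 0.331), FKBP4 (0.101), PPP5C (0.322), CCT3 (0.295), BAG6 (0.112) and YME1L1 (0.265) were not called. HYOU1, ST13, BAG4, HTRA2 and CLPP kept their calls. Over the 78 pathway genes in the table that are no member 14 were higher and 7 lower (26.9% called), and 7 and 5 with the block. Leaving out any 1 of the 6 libraries left 4 to 7 of them higher and 3 to 6 lower. ST13 was called in all 6 of these fits, and each other gene named in this paragraph that is no member and not HYOU1 lost its call in at least 3, with adjusted p up to 0.144 for YME1L1.

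Several chaperones varied with the replicate number in both lines. Among the 43 members with a mean of at least 10 RPM, 14 (32.6%) had the same order of replicates in both lines. That share was 27.3% over all 8794 genes at that level. In 8 members (18.6%) the highest value lay in replicate 1 and the lowest in replicate 2 of both lines, beside 7.14% of those genes. Those 8 members were DNAJA1, DNAJA2, HSP90AA1, HSP90B1, HSPA1B, HSPA4, HSPA8 and HSPE1, singled out after their values were seen. DNAJA1 was the plainest case, at 522, 337 and 401 RPM across HuCCT1/CD90− and 499, 299 and 349.6 RPM across HuCCT1/CD90+. DNAJC7 (TPR2), which binds HSP70 and HSP90, was read at 182, 153 and 149 RPM across HuCCT1/CD90− and 148, 117 and 115 RPM across HuCCT1/CD90+ and was called lower with the block only (adjusted p = 0.185 without and 0.0314 with it). Nothing in the labels says what a replicate number marks, so its part in these levels was not tested.

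The remaining J-domain genes were not called in the fit over all genes. DNAJC11, a mitochondrial membrane protein, was at 217 ± 10.8 against 171 ± 18.9 RPM (log2 fold change -0.34 ± 0.098 (SE), adjusted p = 0.0861), without overlap. Its neighbours lay at -0.52, and with their median subtracted its log2 fold change was 0.17 (adjusted p = 0.356). DNAJC2, which works on ribosomes with HSPA14, was at 5.21 ± 1.02 against 8.76 ± 2.64 RPM (log2 fold change 0.63 ± 0.24 (SE), adjusted p = 0.167) with its neighbours at 0.62, and was called higher with a minimum mean of 1 RPM, by edgeR and by DESeq2 (adjusted p = 0.0291, 0.025 and 0.0394). HSPA14 stayed at 16.3 ± 0.894 against 16.5 ± 5.51 RPM. DNAJC5 (cysteine string protein), DNAJC9, a histone chaperone, and DNAJC21, a factor of ribosome assembly, overlapped, with log2 fold changes of 0.069, -0.067 and -0.076. DNAJC4, DNAJC15, DNAJC22, DNAJC24, DNAJC25, DNAJC27, DNAJB5, DNAJB7 and HSPB9 were not called either, at log2 fold changes from -0.57 (DNAJC27) to 0.46 (DNAJC25). Leaving out a library gave 2 calls among these genes, DNAJC5 higher without HuCCT1/CD90− replicate 1 (adjusted p = 0.0221) and DNAJC27 lower without HuCCT1/CD90+ replicate 2 (0.0105). DNAJC27 was also called lower with a minimum mean of 1 RPM (0.0248). The 24 members with a mean under 1 RPM were not called. They include CRYAB, which was at or under the floor in every library, HSPA2, HSPA6, HSPA12A and HSPA12B, the small HSPs HSPB2, HSPB3 and HSPB7, DNAJB8 and DNAJB13, DNAJC5B, DNAJC5G, DNAJC10 and DNAJC28, and the 9 genes classed as pseudogenes and the antisense gene DNAJC9-AS1. Pseudogenes such as HSP90AB2P share sequence with their parent genes, so their few reads are uncertain in origin. The level of HSPB8, whose promoter is among those counted above, was not analysed here.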

How the data were processed

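Total RNA of 3 HuCCT1/CD90− and 3 HuCCT1/CD90+ libraries was amplified by the authors with the human Ion AmpliSeq transcriptome panel and read on an Ion GeneStudio S5 Prime sequencer. Reads were assigned to amplicons by the ampliSeqRNA plugin. The submitters' processing notes name hg19 and the Transcriptome Analysis Console. The values deposited by the authors are RPM in 1 table of 20811 genes. Every value was a whole multiple of 1 read within 0.05 read, which gave back whole reads for 100% of the values. Levels come from 1 amplicon per gene with no length term. PCR reads carry no molecular identifiers, and floors cover only counting error.

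The main test was limma 3.58.1 in R 4.3.3 (lmFit, then eBayes at its defaults, two-sided) on log2(RPM + 1) over all 20811 genes, with Benjamini-Hochberg adjustment over all of them and no replicate block. The offset of 1 RPM understates fold changes of low genes. Adjusted p-values without another name are from limma. Alternatives were offsets of 0.1 and 5 RPM, minimum means of 1 and 10 RPM, quantile normalization, median centring, trended and robust eBayes, the replicate block, each of the 6 libraries omitted once, subtraction of the median change of 50 neighbouring genes, and, on the recovered reads, edgeR 4.0.16 (quasi-likelihood, with filterByExpr, 12070 genes, and without a filter) and DESeq2 1.42.0. The edgeR values named in the text are those with filterByExpr. The tests were checked on simulated reads with a fixed spread and no effect of the replicate number, which does not show their power in these libraries.

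Over all genes, the deviations of same-numbered libraries from their line's mean correlated across lines with r = 0.21, 0.32 and 0.18 for numbers 1, 2 and 3, beside -0.29 to 0.071 for the 6 differently numbered pairs. The numbers were treated as pairs on this evidence only. The members and gene lists were chosen with earlier results of these data known. Named are called members that averaged 1 RPM or more, the 2 members of each class with the highest mean, members central to each compartment, and up to 4 called genes per list. Other members and list genes named were added after their values were seen. Promoters are from RefSeq (GRCh38.p14), and its gene order was used to find neighbours. No coordinates of the authors' build were used.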

Additional observations from a re-analysis of the deposited data

How the results depend on the processing

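The count of members that were higher, 8, became 15 with genes of a mean of at least 1 RPM, 13 with a mean of at least 10 RPM, 16 with edgeR with and without a filter and with DESeq2, and 4 with the neighbour median subtracted. Leaving out each library gave 6 to 10. The count of members that were lower, 10, became 6 with a mean of at least 10 RPM, 6 with the replicate block and 5 with the neighbour median subtracted. Leaving out each library gave 2 to 6. Of the pathway genes that are no member, 14 were higher. This count became 7 with the replicate block, 9 with the neighbour median subtracted, and 8 at the study's thresholds and also with a minimum fold of 1.5 beside the adjusted p. Leaving out each library gave 4 to 7. The count of those lower, 7, became 12 with a mean of at least 1 RPM, 14 with edgeR with a filter, 15 without, 13 with DESeq2, and 4 both at the study's thresholds and with the minimum fold beside the adjusted p. Leaving out each library gave 3 to 6. The cause of these shifts was not tested. No named gene that was called changed direction in any alternative run, and the summed class levels moved by less than the spread under the scalings tried. The replicate block changed no call of a member other than those given beside the results. Genes under the floor of 3 reads, among them 19 members, could not show a difference at this depth.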
